A study of Rattus norvegicus with 6 samples.

Results

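Fatty acid oxidation breaks fatty acids into acetyl-CoA, mainly in mitochondria and, for very long or branched chains, in peroxisomes. Fatty acids are bound, activated to acyl-CoA, carried into the mitochondrion on carnitine and shortened by a repeated cycle of dehydrogenation, hydration, dehydrogenation and thiolysis. The peroxisome proliferator-activated receptors (PPARs) are nuclear receptors that sense fatty acids, pair with retinoid X receptors and switch on many genes of this route. In liver and heart of insulin-deficient animals the route is known to be used heavily. The genes described here are 35 genes of this pathway, chosen by name: 3 PPARs and a co-activator, the fatty acid binding and uptake genes, the enzymes from activation to thiolysis, the electron transfer proteins, the peroxisomal enzymes and 3 further PPAR targets.

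The tissue was corneal epithelium, the outer cell layer of the eye, scraped from male Brown Norway rats. The diabetic (STZ) group received a single intraperitoneal dose of 50 mg/kg streptozocin, which destroys insulin-producing cells, and the normal (NOR) group received citrate buffer. Both groups were studied 16 weeks later, with 3 sequencing libraries each. The methods name 6 rats in 2 groups and 6 corneas per group, and the titles number the rats of each group 1 to 3. That each library is 1 rat is not stated outright, so p-values measure only the spread between these libraries, which may be technical. The animals' age is not stated either.

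Total counts ran from 62288901 to 87040253 per library, and 3 counts, the limit that a count of 0 allows, correspond to 0.0345 to 0.0482 CPM, the count scaled to the library total (counting error only). *Krt12*, the keratin of corneal epithelium, had a mean of 3949 ± 282 in the normal and 4119 ± 305 in the diabetic group, in FPKM (SD, n = 3 each). FPKM scales the fragments of a locus by its length and by the library's size. The scraped tissue also held transcripts of lens and of stroma, and of genes used as markers of conjunctiva and goblet cells. The 6 of these found, led by *Krt13*, summed to 1246, 1460 and 891 FPKM in normal replicates 1, 2 and 3. In diabetic replicates 1, 2 and 3 they summed to 1241, 1216 and 575 FPKM, and the groups overlapped. *Krt19* among them shares its locus with *Krt14*. The 7 stromal cell markers found summed to 1135, 1126 and 890 FPKM in normal replicates 1, 2 and 3. In diabetic replicates 1, 2 and 3 they summed to 840, 870 and 994 FPKM, so the groups overlapped. Among these markers only *Lum* was lower without overlap (162 ± 12.6 and 115 ± 11.6 FPKM). The mean of *Angptl7* was higher in the diabetic group (93.4 ± 14.3 and 148 ± 45.3 FPKM). In such bulk tissue fewer cells of a type and less RNA per cell cannot be told apart.

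Of the 35 genes, 33 had a row among the 27943 gene names of the tables. *Cd36*, the fatty acid translocase, and *Eci2*, an enoyl-CoA isomerase, were not analysed here. *Fabp4*, the fatty acid binding protein of adipocytes and macrophages, had 0 counts in all 6 libraries. *Ppargc1a* lay below the filter of a mean of 0.5 FPKM, and the other 31 genes were tested. The loci of the 33 genes lie on 16 chromosomes. The locus of *Etfb* is joined with that of *Vsig10l*, so the value under *Etfb* may hold reads of both genes and is uncertain.

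Promoter sequences were taken from RefSeq (build GRCr8), where 28 of the 35 genes were matched, with 30 promoters of 300 bases (250 before the start and 50 after it). A PPAR binds with its retinoid X receptor partner to 2 copies of the half-site AGGTCA spaced by 1 base. On either strand, this full motif was in 0 of the 30 promoters and in 0.0538% of all 33469 promoters. The looser form with AGGNCA for each copy, which includes it, was in 0 of the 30 and in 0.415% of all. Both forms are so rare among all promoters that 0 of 30 says nothing about these genes. Sequence outside the 300 bases was not searched. The half-site AGGTCA alone was in 5 of the 30 (*Acadvl*, *Eci1*, *Eci2*, *Hadhb* and *Hsd17b4*) and in 16.2% of all, a similar share. In 3 of these genes it lay before the start, and those windows are shown because they hold the letters a PPAR half-site is known by. Each is given 5′ to 3′ on the strand of its gene, with the half-site in capitals (TGACCT is AGGTCA read on the opposite strand).
*Eci1*, plus strand, chr10:13961144-13961173, 88 bases between match and start: actggctgatctTGACCTcctgaagggcgg
*Acadvl*, minus strand, chr10:55236857-55236886, 163 bases: atggatcaccctAGGTCAagtagaatacag
*Acadvl*, minus strand, chr10:55236706-55236734, 11 bases: agacgggagaagAGGTCAgtggtcaaggc
*Hsd17b4*, plus strand, chr18:45515359-45515388, 50 bases: cccgaaaccaccAGGTCActtgtttgtgtc
These matches are letters in a window and say nothing on whether a receptor was bound in the cornea.

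*Hadha* and *Hadhb* encode the alpha and beta subunits of the mitochondrial trifunctional protein, and they lie head to head. In the deposited tables (rn6) *Hadhb* is at chr6:27555412-27589530 on the minus strand and *Hadha* at chr6:27589657-27629175 on the plus strand, with 126 bases between them. The sequence between their RefSeq starts (GRCr8, chr6:31907501-31907800, plus strand) is shown because both genes start from it. The capitals mark GGGCGG, the GC box, read on the opposite strand as CCGCCC.
*Hadhb* to *Hadha*: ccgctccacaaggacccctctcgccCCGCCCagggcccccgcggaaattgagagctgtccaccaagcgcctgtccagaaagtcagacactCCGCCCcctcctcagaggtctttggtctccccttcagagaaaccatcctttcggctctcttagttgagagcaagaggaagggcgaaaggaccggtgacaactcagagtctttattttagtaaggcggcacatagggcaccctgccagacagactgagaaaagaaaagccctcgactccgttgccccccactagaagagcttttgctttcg
Of its 300 bases 57.0% were G or C. It held 2 GC boxes, 0 half-sites AGGTCA and 0 CCAAT boxes. Among all promoters of the same length, 33.1% held GGGCGG and 37.5% held CCAAT on either strand.

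No gene of the route passed the test between diabetic and normal epithelium. To pass, a locus needed an adjusted p under 0.05 together with a fold change above 1.2 (0.26 on the log2 scale). With limma on log2(FPKM + 1), 0 of the 31 tested genes passed, against 0.0259% of all 42551 loci. With edgeR on the counts 0 passed (0.0141% of loci), and with DESeq2 0 passed (0.233% of loci). At an unadjusted p under 0.05, 0 of the 31 genes were called by limma, edgeR or DESeq2, against 4.8%, 4.14% and 4.99% of all loci. The lowest unadjusted p belonged to *Ucp2* with limma (0.0946), edgeR (0.0867) and DESeq2 (0.0987). The limma adjusted p ran from 0.953 to 1.

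The log2 fold changes, diabetic minus normal, ran from −0.30 (*Ucp2*) to 0.25 (*Pparg*), with standard errors of 0.086 to 0.35. Because 1 is added to FPKM before the log2 is taken, changes of genes with low values are understated. Of the 31 genes 20 lay below 0, or 64.5%, against 51% of all and 50.8% of annotated loci. Their median was −0.020, against −0.005 over all loci. The ratio of mean FPKM between the groups ran from 0.716 to 1.29, and 21 of the genes lay within 10% of equal means. The 95% interval of the log2 fold change, on the log2(FPKM + 1) scale, stayed within 0.26 of 0 (1.2-fold on that scale) for 3 genes and within 0.585 (1.5-fold) for 25. In FPKM itself the intervals are wider, most of all for genes with low values such as *Ppara*. The intervals of the other 28 genes reached past a 1.2-fold change in at least 1 direction. In 23 of the 31 genes the diabetic libraries had the larger SD. Diabetic replicate 3 held the lowest value of 11 genes and the highest of 6. The shares over all loci were not computed, so these counts are not read as traits of these genes.

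**Figure D1:**
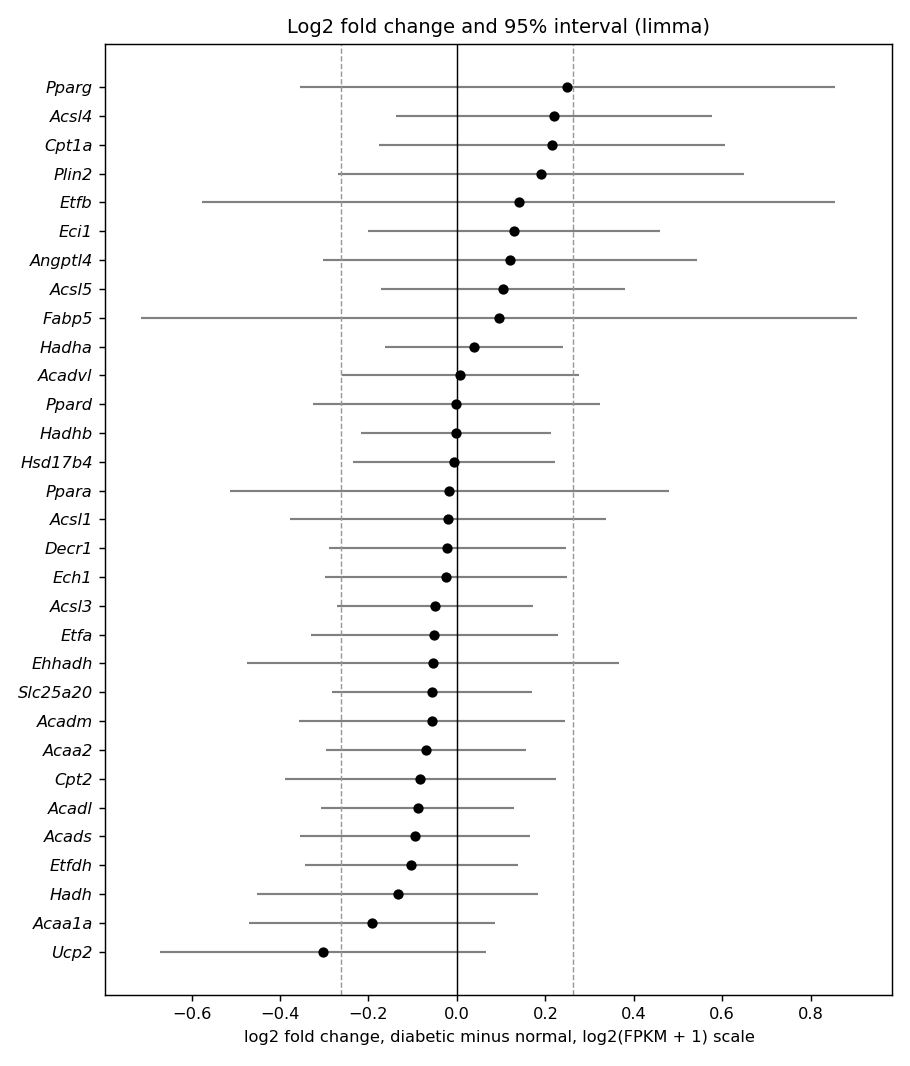
Log2 fold change, diabetic minus normal, of the 31 tested genes on the log2(FPKM + 1) scale (points), with the 95% interval from limma (lines). The solid line marks 0 and the dashed lines a 1.2-fold change, and the interval of every gene crosses 0.

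In 4 of the 31 genes all diabetic libraries lay below all normal ones (*Ucp2*, *Acaa1a*, *Acads* and *Etfdh*), against 5.72% of all loci and 5.29% of annotated ones. In 0 of them they lay above, against 3.94% of all and 3.67% of annotated loci. The values of the 32 genes with counts span from 0.0344 FPKM for *Ppargc1a* to 112 FPKM for *Etfa*. Of the tested genes 12 had a mean of at least 10 FPKM over the 6 libraries, 18 lay from 1 to 10 and 1 below 1 (*Ppara*). The median over 12278 tested protein-coding loci was 4.66 FPKM. FPKM depends on the locus length behind it, and the lengths implied by counts and FPKM ran from 0.85 kb (*Fabp5*) to 30.2 kb (*Acsl1*), with a median of 2.69 kb.

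**Figure D2:**
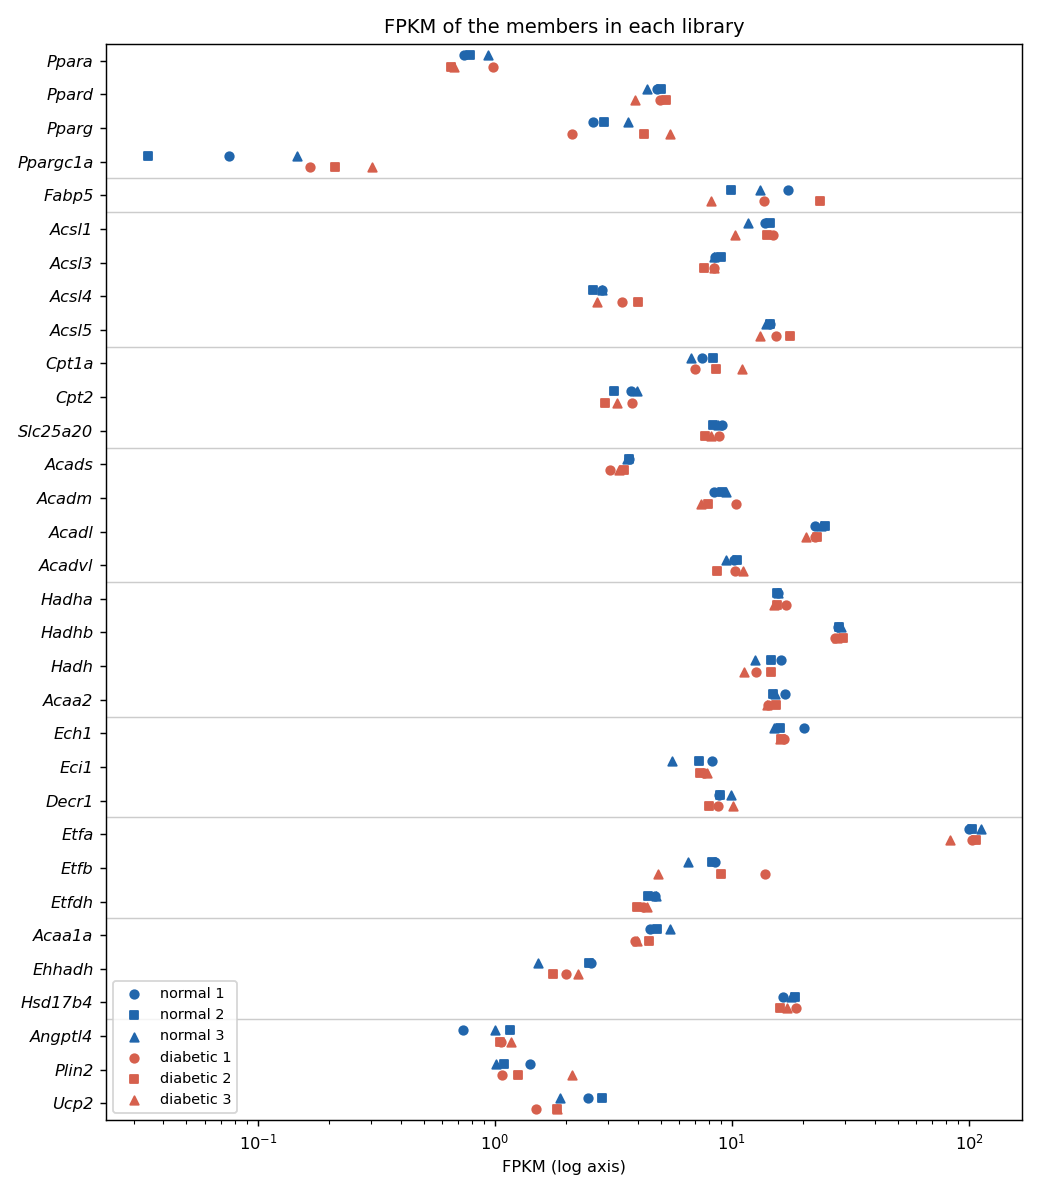
FPKM of the 32 genes with counts (log axis), for 3 normal (blue) and 3 diabetic (red) libraries with 1 marker shape per replicate number. Grey lines part the roles, and *Etfa* lies highest and *Ppargc1a* lowest.

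The receptors differed in level. PPAR delta, the receptor found in most tissues and prominent in epithelia, had the highest mean of the 3. *Ppard* stood at 4.85, 5.03 and 4.38 FPKM in normal replicates 1, 2 and 3 and at 4.98, 5.26 and 3.90 FPKM in diabetic replicates 1, 2 and 3, in the order used for all values below. The groups overlapped, and the log2 fold change was −0.001 (SE 0.14, 95% interval −0.33 to 0.32). *Ppara*, the receptor that drives fatty acid oxidation in liver, was at 0.740, 0.783 and 0.939 FPKM in normal and 0.983, 0.653 and 0.671 in diabetic libraries. This was the lowest level of the tested genes, and of the 12278 protein-coding loci above the filter 5.16% lay below its mean of 0.795 FPKM. The groups overlapped (log2 fold change −0.017, SE 0.21, 95% interval −0.51 to 0.48). The ratio of *Ppard* to *Ppara*, in FPKM, was 5.88 ± 1.06 in normal and 6.31 ± 1.55 in diabetic libraries (SD, n = 3 each). That of *Ppard* to *Pparg* was 1.87, 1.74 and 1.2 in normal and 2.36, 1.24 and 0.714 in diabetic libraries. In FPKM *Pparg* was thus the higher one in diabetic replicate 3, but not in counts (923, against 2151 for *Ppard*). Ratios between genes, here and below, depend on implied locus lengths (8.58 kb for *Ppard*, 2.44 kb for *Ppara* and 2.63 kb for *Pparg*).

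*Pparg*, the receptor of adipocyte and sebocyte differentiation, was at 2.59, 2.89 and 3.66 FPKM in normal and 2.11, 4.24 and 5.46 in diabetic libraries. Diabetic replicates 2 and 3 lay above all normal libraries and diabetic replicate 1 below them. The means were 3.05 ± 0.551 and 3.94 ± 1.70 FPKM (SD, n = 3 each), and the log2 fold change was 0.25 (SE 0.26, 95% interval −0.35 to 0.85, limma adjusted p = 0.962). Without diabetic replicate 1 it was 0.55 (limma adjusted p = 0.457). The study itself lists *Pparg* among its upregulated genes at the same thresholds. Its values were normalized with the R package affy, and the RNAs it adjusted over may differ from the loci used here. Its call was not reached here. The reason for this difference was not tested. Of the counts under the name *Pparg*, 73.18% lay on 10 further loci without an annotated type or strand, all inside the span of the annotated locus (rn6, chr4:147274107-147399380). Those loci summed to 20.4, 30.0 and 29.0 CPM in normal and 18.7, 20.8 and 26.7 in diabetic libraries, and with all loci summed the log2 fold change by edgeR was −0.064. The 5 sebaceous markers summed to 2.03, 1.65 and 1.68 FPKM in normal and 1.57, 2.49 and 3.27 in diabetic libraries, also highest in diabetic replicates 2 and 3. Nearly all of that sum was *Soat1*, which many cells express, while *Mc5r* and *Awat1* were at 0 in all libraries. The 7 adipocyte markers summed to 1.43 to 2.13 FPKM in normal and 1.05 to 1.39 FPKM in diabetic libraries, with *Adipoq* and *Cidec* at 0 in all libraries. Most of that sum was *Lipe*, whose groups overlapped (1.17 to 1.77 FPKM in normal and 1.01 to 1.24 FPKM in diabetic libraries). The part of other cells in the *Pparg* values was not tested.

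*Ppargc1a* encodes PGC-1 alpha, the co-activator that drives mitochondrial genes together with the PPARs. It had 19, 9 and 38 counts in normal and 46, 42 and 61 counts in diabetic libraries. The FPKM values were 0.0755, 0.0344 and 0.147 in normal and 0.166, 0.211 and 0.302 in diabetic libraries. All diabetic libraries lay above all normal ones, at means of 0.0856 ± 0.0570 and 0.227 ± 0.0691 FPKM (SD, n = 3 each), a ratio of 2.65. Without the filter, edgeR gave a log2 fold change of 1.41 (adjusted p = 0.954), and the unadjusted p lay just above 0.05, at 0.0516. In that fit 0.0118% of 50929 loci passed and 3.98% had an unadjusted p under 0.05. Limma without the filter gave 0.19 on the log2(FPKM + 1) scale (adjusted p = 0.941), with an unadjusted value of 0.039, under 0.05. In that fit 0.00589% of loci passed and 4.55% had an unadjusted p under 0.05. The gene did not pass in either fit, and its level was far below that of the other genes.

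**Figure D3:**
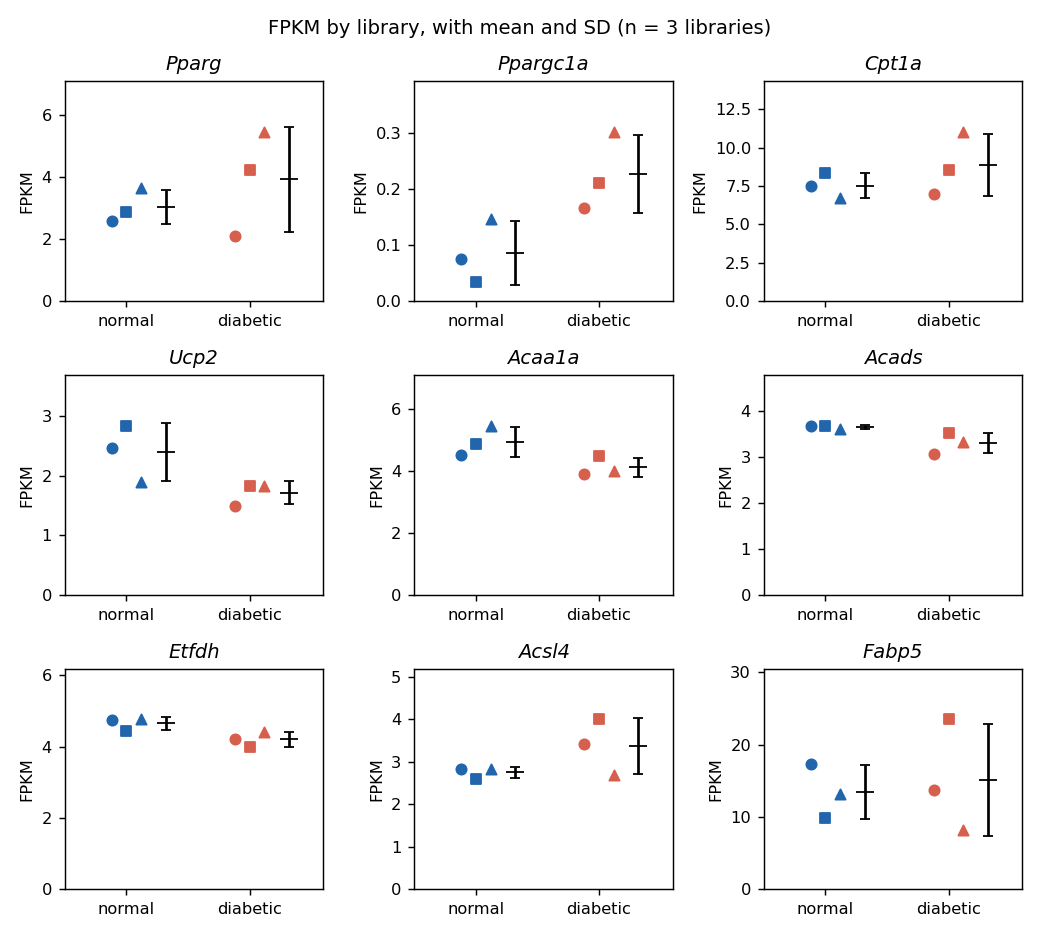
FPKM of 9 genes in 3 normal (blue) and 3 diabetic (red) libraries, with 1 marker shape per replicate number, and the mean and SD in black (n = 3). *Ucp2*, *Acaa1a*, *Acads* and *Etfdh* were lower and *Ppargc1a* higher in the diabetic libraries without overlap, and the other 4 genes overlapped.

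*Fabp5* encodes the epidermal fatty acid binding protein, which carries fatty acids to PPAR delta. It was at 17.3, 9.89 and 13.1 FPKM in normal and 13.7, 23.5 and 8.17 in diabetic libraries. The highest and the lowest value were both diabetic, and the log2 fold change of 0.095 had the largest standard error of the tested genes (0.35). The 9 lens markers, led by *Cryaa*, summed to 368, 109 and 150.2 FPKM in normal and 150.0, 1271 and 3.28 in diabetic libraries. Diabetic replicate 2 was thus highest and diabetic replicate 3 lowest in both, and normal replicate 1 was second in both. The part of lens tissue in the *Fabp5* values was not tested. Without diabetic replicate 2 the log2 fold change was −0.27, and without diabetic replicate 3 it was 0.45. *Fabp4* lies near it on the same chromosome (rn6, chr2:93792601-93797305, against chr2:93942017-93985378 for *Fabp5*).

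**Figure D4:**
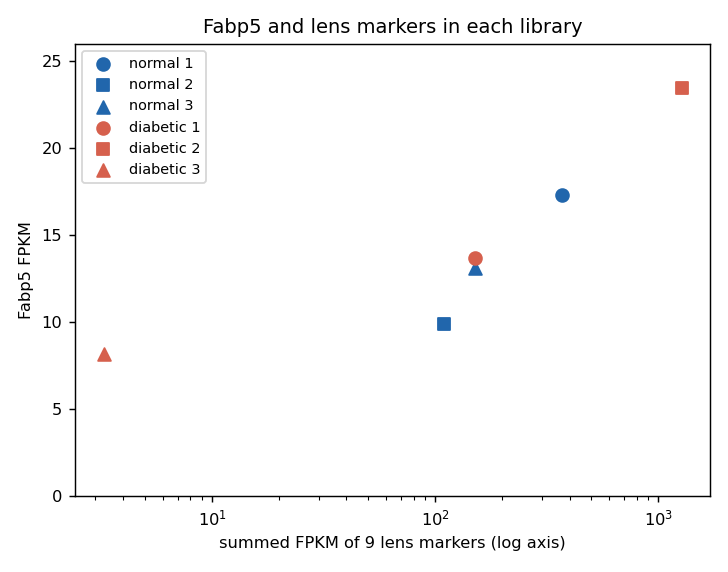
FPKM of *Fabp5* against the summed FPKM of 9 lens markers (log axis) in 3 normal (blue) and 3 diabetic (red) libraries. Diabetic replicate 2 lies highest on both axes and diabetic replicate 3 lowest on both.

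The acyl-CoA synthetases activate fatty acids by joining them to coenzyme A, and none of the 4 measured here passed. *Acsl1*, a PPAR target in liver and muscle, was at 13.8, 14.4 and 11.7 FPKM in normal and 14.9, 14.0 and 10.3 in diabetic libraries. The groups overlapped, with the lowest value of each group in replicate 3 (log2 fold change −0.020, SE 0.15). *Acsl4*, which prefers arachidonic acid, was at 2.83, 2.60 and 2.82 FPKM in normal and 3.42, 3.996 and 2.69 in diabetic libraries. Diabetic replicates 1 and 2 lay above the normal libraries and diabetic replicate 3 among them (log2 fold change 0.22, SE 0.15, limma adjusted p = 0.953). *Acsl5* ranged from 13.1 to 17.5 FPKM and *Acsl3* from 7.65 to 8.96 FPKM over the 6 libraries, with log2 fold changes of 0.10 and −0.049.

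The carnitine shuttle carries the acyl groups into the mitochondrion, and its entry step is the main point of control of the route. *Cpt1a*, the carnitine palmitoyltransferase of this step, was at 7.48, 8.33 and 6.72 FPKM in normal and 7.00, 8.53 and 11.02 in diabetic libraries. Diabetic replicates 2 and 3 lay above the normal libraries and diabetic replicate 1 among them, at means of 7.51 ± 0.807 and 8.85 ± 2.03 FPKM (SD, n = 3 each). The log2 fold change of 0.22 (SE 0.17, 95% interval −0.18 to 0.61) did not pass (limma adjusted p = 0.953). It was 0.059 without diabetic replicate 3. *Cpt2*, which hands the acyl group back to coenzyme A inside, had means of 3.64 ± 0.412 and 3.32 ± 0.434 FPKM, and *Slc25a20*, the translocase, 8.69 ± 0.400 and 8.25 ± 0.552 FPKM. Both overlapped.

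The acyl-CoA dehydrogenases take the first step of the cycle, each for a range of chain lengths. *Acadl*, for long chains, was the highest, at 22.4, 24.6 and 23.7 FPKM in normal and 22.4, 22.9 and 20.4 in diabetic libraries. *Acadm*, for medium chains, was at 8.39, 9.09 and 9.40 FPKM in normal and 10.4, 7.96 and 7.41 in diabetic libraries. For *Acadm* the highest and the 2 lowest values were diabetic (log2 fold change −0.056, SE 0.13). *Acads*, for short chains, was at 3.68, 3.66 and 3.61 FPKM in normal and 3.07, 3.52 and 3.33 in diabetic libraries. All diabetic values lay below the normal ones, whose SD was 0.0364 FPKM, and the log2 fold change was −0.095 (SE 0.11, limma adjusted p = 0.963). *Acadvl*, for very long chains, had means of 10.03 ± 0.551 and 10.01 ± 1.23 FPKM. The ratio of *Acadl* to *Acadm* was 2.63 ± 0.0955 in normal and 2.60 ± 0.383 in diabetic libraries.

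The later steps of the cycle hydrate the acyl-CoA, oxidize it again and split it, and the subunits of the trifunctional protein varied little. *Hadha* was at 15.7, 15.4 and 15.7 FPKM in normal and 16.9, 15.4 and 15.1 in diabetic libraries. Its log2 fold change was 0.038, with the smallest standard error of the tested genes (0.086, 95% interval −0.16 to 0.24). *Hadhb* was at 28.0, 28.4 and 28.7 FPKM in normal and 27.1, 29.3 and 27.6 in diabetic libraries (log2 fold change −0.003, SE 0.092). These intervals lay within a 1.2-fold change, as did that of *Hsd17b4*. The ratio of *Hadhb* to *Hadha*, whose shared upstream sequence is printed above, was 1.79, 1.84 and 1.83 in normal and 1.61, 1.90 and 1.83 in diabetic libraries. Diabetic replicate 1 had the lowest ratio, and the means were 1.82 ± 0.0287 and 1.78 ± 0.153 (SD, n = 3 each). This ratio rests on implied lengths of 2.42 kb for *Hadhb* and 5.23 kb for *Hadha*, and in counts *Hadhb* lay below *Hadha* in every library. *Hadh*, the dehydrogenase for shorter chains, had means of 14.4 ± 1.79 and 12.8 ± 1.75 FPKM, and the thiolase *Acaa2* 15.6 ± 1.03 and 14.6 ± 0.737 FPKM.

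The auxiliary enzymes deal with the double bonds of unsaturated fatty acids. *Ech1* ranged from 15.0 to 20.1 FPKM, *Decr1* from 7.96 to 10.1 FPKM and *Eci1* from 5.58 to 8.21 FPKM over the 6 libraries. In *Ech1* and *Eci1* the normal libraries spanned the diabetic ones, and in *Decr1* the diabetic ones spanned the normal ones. For *Eci1*, 49.39% of the counts under its name lay on 1 further locus without an annotated type.

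The electron transfer genes pass electrons from the dehydrogenases to the respiratory chain. In FPKM *Etfa* was the highest of the 31 tested genes, at 100.4, 103 and 112 in normal and 103, 107 and 83.2 in diabetic libraries. Its mean of 102 FPKM lay above 98.5% of the protein-coding loci that passed the filter. Diabetic replicate 3 was lowest, and the other 5 libraries lay close together (log2 fold change −0.051, SE 0.12). This rank depends on implied locus lengths, 1.54 kb for *Etfa* and 30.2 kb for *Acsl1*. In counts *Acsl1* (19922 to 38877) lay above *Etfa* (8252 to 14110) in every library. *Etfdh*, which hands the electrons to ubiquinone, was at 4.75, 4.45 and 4.76 FPKM in normal and 4.22, 3.98 and 4.402 in diabetic libraries. The diabetic libraries lay below the normal ones (log2 fold change −0.10, SE 0.10, limma adjusted p = 0.959). The joined locus of *Etfb* and *Vsig10l* was at 8.48, 8.27 and 6.50 FPKM in normal and 13.8, 9.01 and 4.88 in diabetic libraries. Its highest and lowest value were both diabetic, and without diabetic replicate 1 its log2 fold change moved from 0.14 to −0.17.

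The 3 peroxisomal enzymes had log2 fold changes below 0 by limma, but *Ehhadh* was at 0.13 by edgeR with its loci summed, and *Hsd17b4* at 0.003 by DESeq2. *Acaa1a*, the peroxisomal thiolase, was at 4.50, 4.85 and 5.45 FPKM in normal and 3.90, 4.47 and 3.98 in diabetic libraries. The diabetic libraries lay below the normal ones, closest between diabetic replicate 2 and normal replicate 1 (log2 fold change −0.19, SE 0.12, limma adjusted p = 0.953). *Ehhadh*, the bifunctional enzyme of straight chains, was at 2.53, 2.49 and 1.52 FPKM in normal and 1.99, 1.76 and 2.24 in diabetic libraries. The normal libraries spanned the diabetic ones (log2 fold change −0.054, SE 0.18), and 50.28% of the counts under its name lay on 6 further loci. *Hsd17b4*, the bifunctional enzyme that also takes branched chains, had means of 17.5 ± 1.01 and 17.2 ± 1.34 FPKM. Its ratio to *Ehhadh* was 8.51 ± 2.77 in normal and 8.66 ± 0.902 in diabetic libraries.

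Of the remaining PPAR targets *Ucp2* differed most. *Ucp2* encodes an inner membrane carrier of mitochondria. It was at 2.46, 2.83 and 1.89 FPKM in normal and 1.49, 1.83 and 1.83 in diabetic libraries. The diabetic libraries lay below the normal ones, with normal replicate 3 close to them. The means were 2.40 ± 0.478 and 1.71 ± 0.195 FPKM (SD, n = 3 each), a ratio of 0.716, and the log2 fold change was −0.30 (SE 0.16, 95% interval −0.67 to 0.066, limma adjusted p = 0.953). *Angptl4*, a secreted inhibitor of lipoprotein lipase, was at 0.734, 1.16 and 1.00 FPKM in normal and 1.06, 1.05 and 1.17 in diabetic libraries. *Plin2*, a coat protein of lipid droplets, was at 1.41, 1.09 and 1.01 FPKM in normal and 1.07, 1.25 and 2.11 in diabetic libraries. Both overlapped, and diabetic replicate 3 was the highest for each (log2 fold changes 0.12, SE 0.18, and 0.19, SE 0.20). Without diabetic replicate 3 that of *Plin2* was 0.038.

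A wider list of 117 genes of fatty acid and PPAR biology gave 83 tested genes on 81 loci (*Acot1*, *Acot2* and *Acot3* share 1 locus). By limma, edgeR or DESeq2 0 of them passed. At an unadjusted p under 0.05, limma called 0 higher and 2 lower, against 2.44% and 2.35% of all loci, while edgeR called 3 and DESeq2 4, against 4.14% and 4.99% of all loci. Their median log2 fold change was 0.006. Of the listed genes 10 had 0 counts in every library, among them *Cyp4a1*, *Cyp4a2* and *Cyp4a3*, the classical liver PPAR alpha targets, and *Fabp1*. *Pdk4*, a PPAR target that holds back glucose oxidation, had means of 0.239 and 0.232 FPKM and lay below the filter.

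The 2 genes called lower belong to the lipid droplet list, of whose 8 tested genes the median log2 fold change was −0.18. Of these 8 genes 5 lay below 0 and 3 above it. In 1 of the 8, *Lipa* (0.19), all diabetic libraries lay above all normal ones. *Hilpda*, an inhibitor of the lipase *Pnpla2* and a PPAR and hypoxia target, was at 2.42, 2.86 and 2.50 FPKM in normal and 1.88, 1.19 and 1.48 in diabetic libraries. *Abhd5*, the activator of the same lipase, was at 11.5, 11.4 and 11.1 FPKM in normal and 8.84, 7.54 and 9.37 in diabetic libraries. In both genes all diabetic libraries lay below all normal ones. The log2 fold changes were −0.51 (SE 0.15) for *Hilpda* and −0.35 (SE 0.11) for *Abhd5*, with unadjusted values of 0.0111 and 0.0120 by limma. Neither passed, with a limma adjusted p of 0.953 for both and a DESeq2 adjusted p of 0.635 for *Hilpda* and 0.582 for *Abhd5*.

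In the other lists the genes of lowest p had a limma adjusted p of at least 0.953. Among the co-regulators these were *Ncoa2* (4.97 ± 0.418 and 6.74 ± 1.74 FPKM, log2 fold change 0.37) and *Ncoa3* (0.22), both nuclear receptor co-activators. Of *Ncoa2*, diabetic replicates 2 and 3 lay above the normal libraries at 7.77 and 7.72 FPKM, while diabetic replicate 1 was at 4.74 FPKM, among them. *Pparg* was also highest in diabetic replicates 2 and 3. Among uptake and activation genes they were *Acss1* (0.28) and *Acbd5* (0.14), and in the carnitine system *Crat* (0.20) and *Acaca* (0.16). Among other mitochondrial enzymes they were *Acadsb* (−0.20) and *Acad9* (−0.18), both acyl-CoA dehydrogenases. Among the peroxisomal genes *Pecr* is given (0.34). Among other PPAR targets they were *Cidea*, a lipid droplet protein (4.32 ± 0.326 and 5.38 ± 0.757 FPKM, log2 fold change 0.28), and *Gpd1* (−0.32). Without overlap, 1 of the 83 genes was higher (*Lipa*) and 4 were lower (*Hilpda*, *Abhd5* and *Eci3* among them), against 3.94% and 5.72% of all loci. *Lipa* and *Eci3* are named after their values had been seen.

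**Figure D5:**
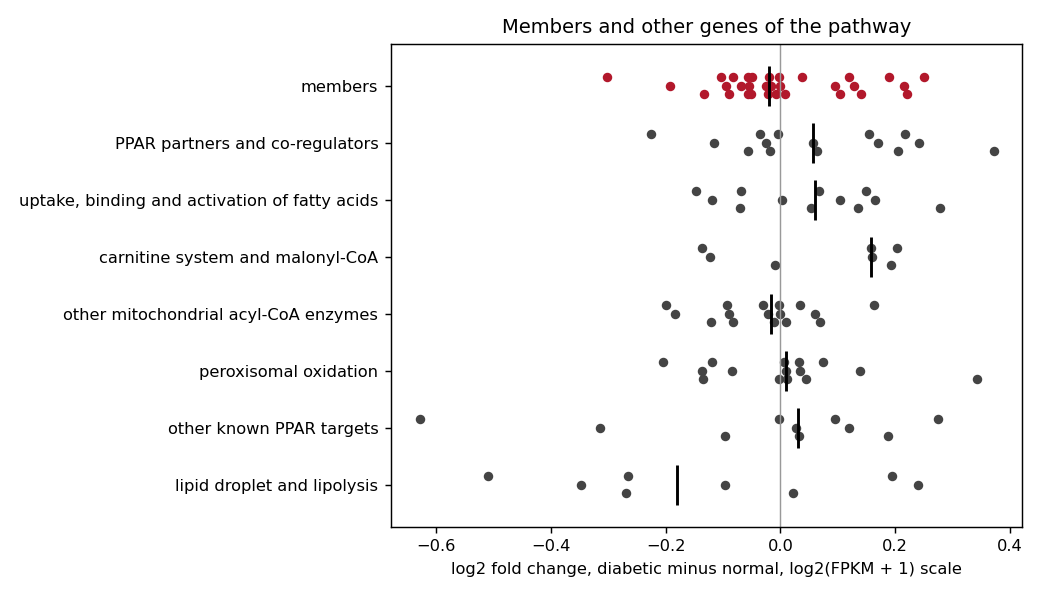
Log2 fold change, diabetic minus normal, on the log2(FPKM + 1) scale, of the 31 tested genes (red) and of 7 further lists of the pathway (grey), with 1 point per locus and a black bar at the median of each list. The medians run from −0.18 for the lipid droplet list to 0.16 for the carnitine system list.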

How the data were processed

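Libraries of corneal epithelium, 3 diabetic and 3 normal, were grouped by their titles. Per the submitters' processing notes, the authors used cutadapt, FastQC, Bowtie2 and the rat build rn6. Not given in the sources used here: versions, and the program that assembled and counted loci. For each locus the authors deposited raw read counts. The deposited FPKM values correct counts for length and depth, and hold a placeholder where the count is 0 (86380 values), set to 0 here. Each table holds 61453 loci.

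Where several loci carried a gene's name, the protein-coding locus of highest mean FPKM was used. As in the study's methods, log2 values were tested by limma (3.58.1, R 4.3.3, eBayes with trend). Here log2(FPKM + 1) was quantile-normalized over 42551 loci with a mean of at least 0.5 FPKM, with Benjamini-Hochberg adjustment over all of them. Counts were tested with edgeR 4.0.16 (quasi-likelihood) and DESeq2 1.42.0. Other normalization, pseudocount, filter and loci, summed loci, a replicate block and leaving out each library were also tried, and edgeR without a filter was added after the data had been seen, for *Ppargc1a*. Scripts were tested on simulated data. Total counts were 62288901 to 87040253. The genes, the lists and the rule for naming genes were chosen with earlier results of these data known. All listed genes are accounted for, with values per library for those without overlap, the receptors and the main steps, and up to 2 genes of lowest limma p in each further list. Replicate libraries differed by more than sampling noise. The small, long noncoding and circular RNA data were not analysed here. Some genes of the further lists are not reported here.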

Additional observations from a re-analysis of the deposited data

How the results depend on the processing

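Under every alternative 0 of the 31 genes passed, and 0 of the wider list under each one that was run on it (all but the summed loci). The number of loci passing, 11 in the main analysis (8 higher, 3 lower), was 6 (3 higher) with a pseudocount of 0.1, 3 (1 higher) without the filter and with annotated loci alone, 6 (4 higher) with edgeR, with and without the filter, and 99 (61 higher, 38 lower) with DESeq2. Leaving out 1 library gave 3 to 10 loci, of which 1 to 7 were higher and 2 to 6 lower, and without diabetic replicate 1 it was 3. With a replicate block it was 1 (0 higher, 1 lower). Same-numbered libraries deviated together with correlations of −0.009 to 0.032, so the numbers were not taken to pair the samples, and the block changed no call among the 31 genes.

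The median log2 fold change of the genes, −0.020, was −0.038 without quantile normalization, −0.034 with annotated loci alone, −0.011 with DESeq2, −0.010 with edgeR without a filter, 0.000 with counts summed over loci, and −0.039 to −0.017 when 1 library was left out. Some values changed sign, most of them near 0. *Acadvl* was −0.007 without quantile normalization and −0.003 with annotated loci. *Hadhb* was 0.003 with annotated loci, 0.008 with edgeR, 0.013 with DESeq2 and with edgeR without a filter, and 0.004 with summed loci. *Ppard* was 0.015 with edgeR and 0.019 with DESeq2 and with edgeR without a filter. *Acsl1* was 0.004 with DESeq2 and 0.003 with edgeR without a filter and with summed loci, and *Hsd17b4* was 0.003 with DESeq2 and 0.004 with edgeR without a filter. With summed loci *Pparg*, the highest in the main analysis at 0.25, was −0.064, *Ehhadh* 0.133, *Ppara* 0.175 and *Decr1* 0.027. The cause of these shifts was not tested.

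With 1 library left out, the log2 fold change ranged across 0 for *Ppara* (−0.106 to 0.036), *Ppard* (−0.083 to 0.118), *Fabp5* (−0.273 to 0.447), *Acsl1* (−0.106 to 0.130), *Acadm* (−0.173 to 0.028), *Acadvl* (−0.068 to 0.090), *Hadhb* (−0.036 to 0.052), *Ech1* (−0.106 to 0.085), *Eci1* (−0.011 to 0.236), *Decr1* (−0.108 to 0.042), *Etfa* (−0.127 to 0.026), *Etfb* (−0.167 to 0.498), *Ehhadh* (−0.230 to 0.040) and *Hsd17b4* (−0.057 to 0.036). For the genes without overlap it kept its sign (*Ucp2* −0.427 to −0.207, *Acaa1a* −0.256 to −0.137, *Acads* −0.142 to −0.058, *Etfdh* −0.126 to −0.083). With 3 libraries a group, the 95% intervals had half-widths of 0.20 to 0.81 on the log2 scale, which limits what could be called.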

Other observations

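The further loci that carry the name of *Ehhadh*, chosen after their values had been seen, summed to 6.74, 6.55 and 6.50 CPM (counts scaled to the library total) in normal and 9.40, 7.61 and 8.06 in diabetic libraries, without overlap. The annotated locus of *Ehhadh* was at 8.98, 8.81 and 5.41 CPM in normal and 7.03, 6.23 and 7.95 in diabetic libraries, where the groups overlapped. The further locus of *Ppara* was at 0.570, 0.771 and 0.567 CPM in normal and 0.747, 1.12 and 1.28 in diabetic libraries. No test was applied to the further loci alone.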
